A study of Mus musculus with 40 samples.

Results

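Of the 22844 genes in the deposited tables, 7 long non-coding genes were followed here: Gm26870, Gm10851, C130080G10Rik, A530058N18Rik, Gm38560, Gm16576 and Gm42047. They were chosen by their values in these libraries. Gm26870 was selected on its difference between TSCmKO and control muscle under vehicle at both ages, and Gm10851 on that difference at 3 months and on its fall with rapamycin in 3mTSCmKO. C130080G10Rik was selected on its fall with rapamycin in 3mTSCmKO, and A530058N18Rik joined it because both share exons. Gm38560 and Gm16576 were selected on their rise with rapamycin in 9mTSCmKO, and Gm42047 on its rise with rapamycin in control muscle at both ages. Values in those comparisons, and in any comparison that uses the same libraries, are therefore a description without a test. Tests are given only between libraries that the selection did not use, and no p is read from differences of A530058N18Rik that involve its high groups. All 7 genes passed the filter on low counts and were among the 13543 genes tested, C130080G10Rik, A530058N18Rik and Gm10851 only through their high groups. C130080G10Rik and Gm10851 passed it with the 5 libraries of 3mTSCmKO alone, whose lowest values were 3.82 and 7.19 CPM. A530058N18Rik, at 0.724 CPM in its lowest library there, also needed 9mTSCmKO.

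The samples were 40 extensor digitorum longus (EDL) muscles, a fast muscle of the mouse hindlimb, in 8 groups of 5. In TSCmKO mice skeletal muscle is without Tsc1, whose product restrains the kinase complex mTORC1 and with it cell growth, and the promoter that drives their Cre is not given in the sources used here. Controls (CON, genotype Tsc1fl/fl) were littermates with floxed Tsc1 and no Cre, and the strain label of both genotypes was Tsc1tm1Djk/J. Groups are named by age in months, genotype and treatment: 3mCON, 3mCON+RM, 3mTSCmKO, 3mTSCmKO+RM, 9mCON, 9mCON+RM, 9mTSCmKO and 9mTSCmKO+RM, where +RM received the mTORC1 inhibitor rapamycin by intraperitoneal injection for 3 days (4 mg per kg per the labels, while the study text gives a higher dose) and the others received vehicle.

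Long non-coding RNAs are transcripts without a recognised protein product. Many start beside the promoter of a coding gene and run away from it on the other strand (bidirectional transcripts), others lie antisense to a coding gene, and some, called lincRNAs, stand in intergenic DNA. Few of them have a known function, so the coding gene next to one is commonly described with it. The question addressed here was how each of these transcripts stood across genotype, age and rapamycin, and whether the coding genes around it moved with it.

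Positions are GRCm38, from GENCODE M21. Gm26870 (ENSMUSG00000097312), a lincRNA on the minus strand of chromosome 9 (3000282 to 3038313), has 3 annotated transcripts of 1143 to 1170 nt, each made of a tandem repeat. Its copies recur every 234 nt, with 78.3% to 95.9% of bases identical between neighbouring copies. The first unit of one 1170-nt transcript is shown, because the annotated transcripts consist of this repeat. Capitals mark a 9-base word, AAATGAGAA, that occurs 3 times in the unit and 15 times in the transcript.
Gm26870 repeat unit: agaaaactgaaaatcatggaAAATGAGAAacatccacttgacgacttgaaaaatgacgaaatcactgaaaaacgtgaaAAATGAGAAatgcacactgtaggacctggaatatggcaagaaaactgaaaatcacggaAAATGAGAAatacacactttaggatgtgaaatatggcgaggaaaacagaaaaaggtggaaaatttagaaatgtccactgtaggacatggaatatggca
As background, the major satellite of mouse pericentromeric chromatin is also a tandem repeat with a unit of this length. Neither the satellite nor a genome sequence was compared with this unit. Reads from the satellite or from other copies of such a repeat therefore cannot be told from reads of this gene. Gm26870 shared 0% of its 31-mers (words of 31 bases, the default length by which kallisto places reads) with other genes of the table. That check does not cover repeats outside those genes.

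The coding genes that begin beside 3 of the transcripts make their promoter windows informative, and these windows (250 bases before to 50 after the start, RefSeq, GRCm38.p6) are shown. Gm38560 (ENSMUSG00000112375, chromosome 10, 82845733 to 82859008, minus strand) lies inside the span of Txnrd1 on the other strand, and starts 171 bp from a coding Txnrd1 transcript. Gm16576 (ENSMUSG00000087543, chromosome 15, 79742698 to 79757394, plus strand) starts 162 bp from Sun2, which runs the other way. Both are annotated as bidirectional-promoter lncRNAs. C130080G10Rik (ENSMUSG00000092397, chromosome 2, 114054335 to 114064868, plus strand, annotated as antisense) starts 787 bp from Actc1. Capitals mark GC boxes (the word GGGCGG), boxes named for their letters CCAAT, and antioxidant response elements (TGACNNNGC), each searched on both strands, some touching one another.
Gm38560 promoter, chr10:82858959-82859258, minus strand: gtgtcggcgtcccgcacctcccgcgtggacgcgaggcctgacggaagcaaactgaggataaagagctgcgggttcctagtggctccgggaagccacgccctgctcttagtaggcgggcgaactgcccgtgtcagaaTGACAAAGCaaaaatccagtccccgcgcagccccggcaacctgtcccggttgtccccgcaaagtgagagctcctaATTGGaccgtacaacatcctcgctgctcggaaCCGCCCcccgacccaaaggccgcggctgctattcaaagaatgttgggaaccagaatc
Gm16576 promoter, chr15:79742448-79742747, plus strand: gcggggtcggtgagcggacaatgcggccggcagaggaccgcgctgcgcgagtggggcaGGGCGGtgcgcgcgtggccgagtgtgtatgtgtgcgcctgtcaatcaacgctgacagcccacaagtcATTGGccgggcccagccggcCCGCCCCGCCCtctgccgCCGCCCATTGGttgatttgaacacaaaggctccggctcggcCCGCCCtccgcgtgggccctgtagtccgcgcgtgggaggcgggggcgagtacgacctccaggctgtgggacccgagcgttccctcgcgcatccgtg
C130080G10Rik promoter, chr2:114054146-114054445, plus strand: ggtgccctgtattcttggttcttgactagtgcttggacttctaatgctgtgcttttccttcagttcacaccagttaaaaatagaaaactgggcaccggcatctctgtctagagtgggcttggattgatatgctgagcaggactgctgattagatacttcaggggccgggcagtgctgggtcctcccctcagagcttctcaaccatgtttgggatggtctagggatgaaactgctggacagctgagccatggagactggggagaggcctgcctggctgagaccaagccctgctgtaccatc
The Gm16576 window held 5 GC boxes and 2 CCAAT boxes and was 71.7% G and C. The Gm38560 window held 1 of each and 1 antioxidant response element, at 61.3% G and C, and it contains the start of the Txnrd1 transcript. The C130080G10Rik window held 0 of the 7 motifs searched, which were these 3 and the TATA box (TATAAA), an E-box (CACGTG), the half-site of ATF4 (TGATGNAA) and the FoxO site (TGTTTAC). Among 27025 RefSeq promoter windows of this length, 35.9% held a GC box, 37.9% a CCAAT box and 12.5% an antioxidant response element, 14.2% the TATA letters, 7.2% the E-box, 4.1% the ATF4 half-site and 3.5% the FoxO letters, so a match is a description only.

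The other members lie as follows. Gm10851 (ENSMUSG00000102329, chromosome 2, 11521706 to 11530836, plus strand) is antisense within Pfkfb3 and shares 0 exonic bases with it. A530058N18Rik (ENSMUSG00000092201, chromosome 2, 114013563 to 114068324, plus strand) is a processed transcript that begins beside Gjd2, passes Actc1 on the other strand and contains the whole span of C130080G10Rik. In GENCODE 2 genes carry its name, and the row of the table was matched by its identifier. It shares 1001 bp of exon with that gene, which is 37.2% of the 31-mers of C130080G10Rik and 48.8% of its own, so their values are not independent. Gm42047 (ENSMUSG00000110631, chromosome 8, 121833247 to 121841178, plus strand) is a lincRNA 3678 bp from the start of Klhdc4. Of its 31-mers 48.9% recur in other genes of the table, mainly in the lincRNAs Gm48362 on chromosome 9, Gm47939 on chromosome 10 and Gm43549 on chromosome 3, and its longest stretch common to all 4 was 245 nt. Reads from shared stretches were divided equally by the authors.

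**Figure D1:**
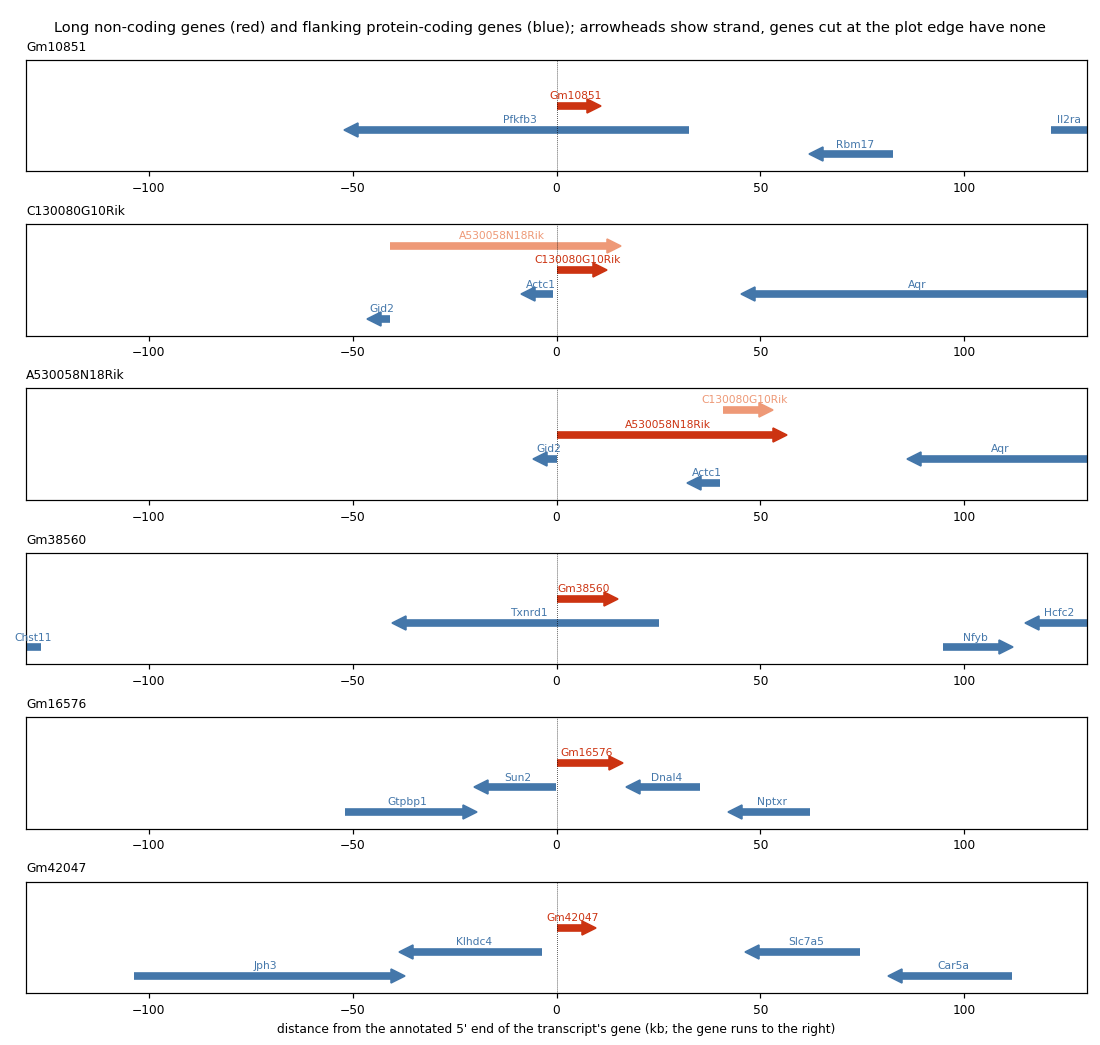
Position of 6 of the long non-coding genes (red) and their flanking protein-coding genes (blue), as distance in kb from the annotated 5′ end of each non-coding gene, which runs to the right. Actc1, Sun2 and Klhdc4 start within 787, 162 and 3678 bp of a non-coding start and point away from it, while Pfkfb3 and Txnrd1 run across one.

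Total counts ran from 8883870 to 35224669 per library. Tsc1 was 17.7 to 35.8 CPM (counts relative to the library total, scaled by TMM factors) in the 4 TSCmKO groups and 51.3 to 134 in the 4 CON groups, without overlap. Markers of fiber types and of other cells moved with some groups. Of 11 fast fiber markers 5 were lower in 9mTSCmKO (summed TPM 165165 to 185547) than in 9mCON (217908 to 239880.0), without overlap of the sums, and the other 6 groups lay between 172791 and 244200.3. All 5 fibroblast markers were lower in 9mCON+RM (summed TPM 97.7 to 459) than in 9mCON (592 to 1211), as were 4 of 5 tendon markers (21.8 to 51.5 against 55.3 to 359) and 4 of 5 macrophage markers (3.63 to 16.2 against 15.7 to 54.3). Of 5 each, 3 fibroblast and 3 tendon markers were lower in 9mTSCmKO than in 9mCON. All 6 slow fiber markers were higher in 9mTSCmKO (1401 to 3533) than in 9mCON (114 to 190.4), and 2 of 6 in 3mTSCmKO (373 to 1464) than in 3mCON (107 to 681). The insert size ran from 175 to 239 nt in libraries of 3-month mice and from 223 to 308 nt in 19 of the 20 libraries of 9-month mice (9mTSCmKO+RM replicate 5 has no value in the labels used), so age and library preparation cannot be told apart. In whole muscle, fewer cells of a type and less RNA per cell cannot be told apart.

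Gm26870 was the most abundant of the 7 transcripts, scarce in control muscle and plentiful in TSCmKO muscle. CPM in replicates 1 to 5 were 28.7, 35.9, 24.1, 32.3 and 20 in 3mCON and 9595, 7929, 9297, 5146 and 9446 in 3mTSCmKO. At 9 months they were 199, 62.6, 61.9, 42.1 and 39.8 in 9mCON and 39068, 7592, 3693, 6470.1 and 9087 in 9mTSCmKO. TSCmKO libraries thus stood far above every control library at both ages, and replicate 1 of 9mCON and replicate 1 of 9mTSCmKO each stood above the rest of its group. The ratio was 293-fold at 3 months and 163-fold at 9 months (83.3-fold without 9mTSCmKO replicate 1 and 256-fold without 9mCON replicate 1), values that chose the gene and carry no test. In TPM, a unit per transcript length, the level was 13042 ± 2997 in 3mTSCmKO (SD, n = 5) and 45.3 ± 9.60 in 3mCON. Gm26870 took 4.19% of all counts in the highest library and at most 0.0215% in any control library.

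The libraries under rapamycin did not enter that choice. CPM of Gm26870 were 26.2, 28, 31.4, 21.6 and 18.1 in 3mCON+RM and 5831, 6944, 4989.5, 5748 and 4014 in 3mTSCmKO+RM. In 9mCON+RM they were 77.7, 44.3, 77.1, 43.1 and 76.8, against 4649, 7172, 9027, 6424 and 9329.7 in 9mTSCmKO+RM. The groups did not overlap at either age, and Gm26870 stayed high in TSCmKO muscle after 3 days of rapamycin. The log2 fold change of TSCmKO+RM against CON+RM was 7.79 ± 0.555 (SE) at 3 months (221-fold, edgeR quasi-likelihood test, Benjamini-Hochberg adjusted p = 2.34e-12) and 6.84 ± 0.531 at 9 months (115-fold, adjusted p = 7.26e-12). Of all genes tested, 10% and 20.6% were called in these comparisons. Of 6 slow fiber markers 2 and 5 were higher in them, and their part in this was not tested. Within TSCmKO, the log2 fold change with rapamycin was -0.59 at 3 months and -0.85 at 9 months, with overlapping groups, and at 9 months it was 0.12 without 9mTSCmKO replicate 1. These values share libraries with the selection and have no test.

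Gm26870 was also higher in 9mCON+RM than in 3mCON+RM without overlap, with a log2 fold change of 1.35 ± 0.428 (edgeR, adjusted p = 0.0282, 14.6% of all genes called). With insert size as a term, fitted without 9mTSCmKO+RM replicate 5, it was 0.85 (adjusted p = 0.319), and leaving out any of 5 libraries (3mCON+RM replicates 1, 4 and 5 and 9mCON+RM replicates 1 and 5) ended the call at 1.26 to 1.37. In TSCmKO+RM the same step gave 0.41 ± 0.411 (adjusted p = 0.507, 22.8% of all genes called). The other age comparisons open to a test, 11 across the other 6 transcripts, gave 0 calls in edgeR, 0 at an unadjusted p under 0.05 and 0 in DESeq2. Of these, 4 were in CON and 5 in CON+RM, where 1.02% and 14.6% of all genes were called, and 1 each in TSCmKO (37.4%) and TSCmKO+RM (22.8%). Among them Gm10851, C130080G10Rik and A530058N18Rik stood in control muscle at 0 to 18, 1 to 17 and 0 to 4 counts per library. At such counts the lack of a call says little about age.

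Coding genes near the annotated Gm26870 locus moved far less, though its reads may come from other copies of the repeat. None is listed at lower coordinates, and the nearest, Alkbh8 (a transfer RNA methyltransferase), begins 296827 bp away. Alkbh8 passed in none of the 8 genotype and rapamycin comparisons, with log2 fold changes from -0.35 to 0.06 and a lowest edgeR adjusted p of 0.0824. Cwf19l2, next to it, rose in TSCmKO at 9 months by 0.37 ± 0.141 under vehicle (edgeR, adjusted p = 0.0374) and by 0.51 ± 0.141 under rapamycin (adjusted p = 0.00751). The 3 genes whose log2 CPM followed Gm26870 most closely over the 40 libraries were Igfn1 (r = 0.962, and 0.54 after removing group means), Hectd2os (r = 0.95, and -0.21 after removing group means) and Spag5 (r = 0.937, and -0.13 after removing group means). Igfn1, which codes for a muscle protein with immunoglobulin-like and fibronectin domains, averaged 38.2 ± 13.4 CPM in 3mCON, 1363 ± 711 in 3mTSCmKO and 459 ± 101 in 3mTSCmKO+RM. These correlations share libraries and scaling and rest mainly on the group means.

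**Figure D2:**
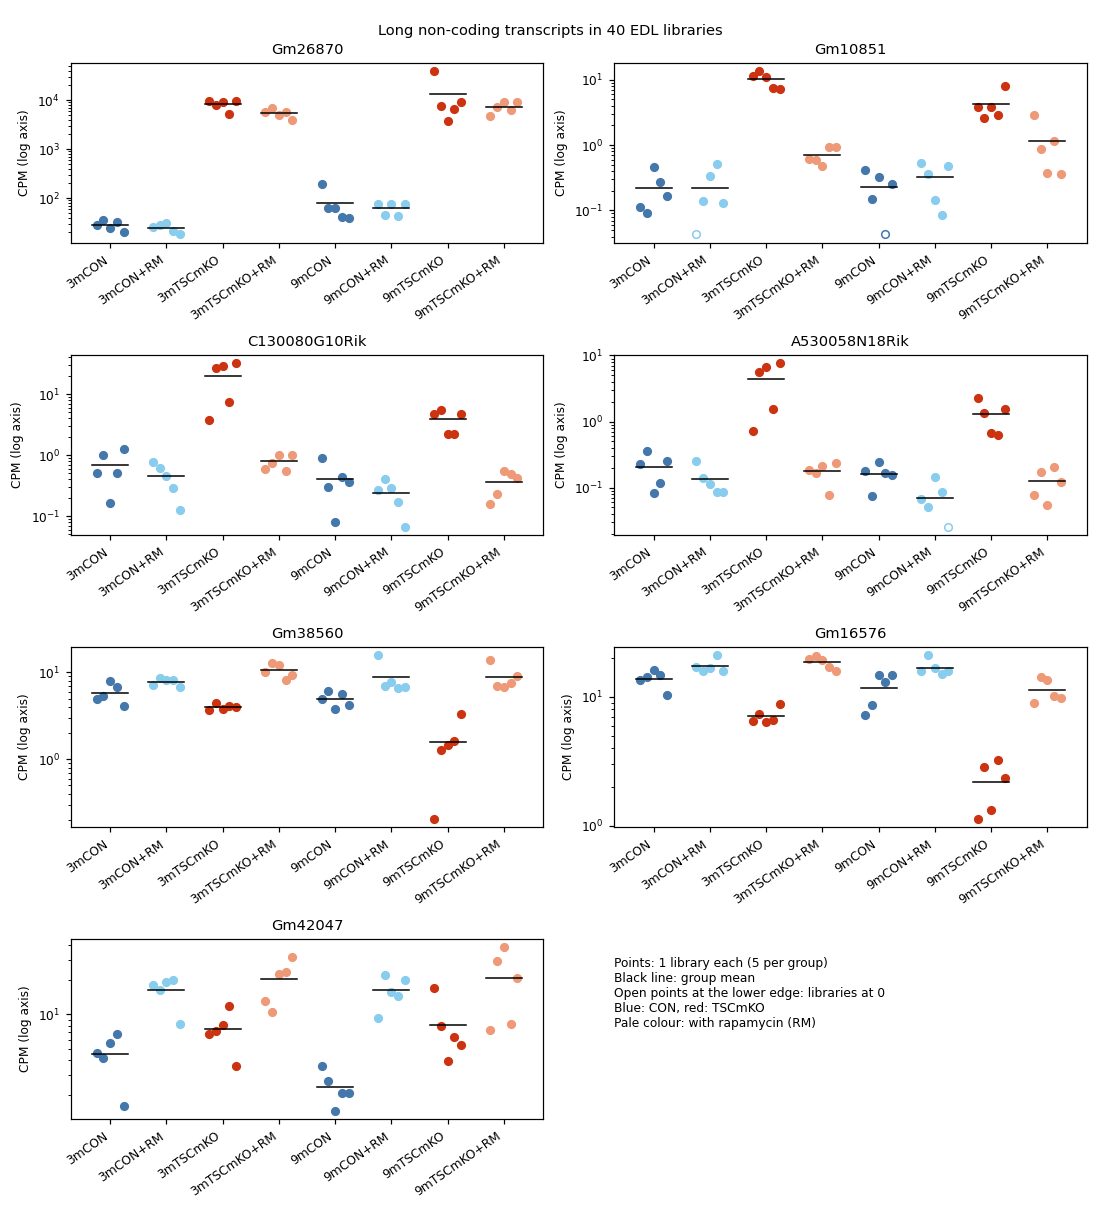
CPM (log axis) of the 7 long non-coding transcripts in each of 40 libraries, by group, with group means as black lines and libraries at 0 as open points at the lower edge. Gm26870 is high in all TSCmKO groups, Gm10851, C130080G10Rik and A530058N18Rik in TSCmKO without rapamycin, Gm38560 and Gm16576 are low in 9mTSCmKO, and Gm42047 is high with rapamycin.

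Gm10851 was near absent from control muscle and present in TSCmKO muscle under vehicle. CPM were 0.112, 0.0909, 0.454, 0.268 and 0.169 in 3mCON, 11.3, 13.4, 11.1, 7.38 and 7.19 in 3mTSCmKO and 0.602, 0.587, 0.485, 0.941 and 0.948 in 3mTSCmKO+RM. These 15 libraries named the gene, with a 39.8-fold difference by genotype and a 14.0-fold fall with rapamycin. The libraries at 9 months were outside that choice. There CPM were 0.413, 0.151, 0.325, 0 and 0.258 in 9mCON, 3.85, 2.59, 3.79, 2.88 and 8.0 in 9mTSCmKO, 0.540, 0.360, 0.145, 0.0859 and 0.472 in 9mCON+RM and 2.89, 0.864, 0.380, 1.17 and 0.366 in 9mTSCmKO+RM. All 5 libraries of 9mTSCmKO lay above all 10 control libraries of that age, and replicate 1 of 9mTSCmKO+RM reached into their range.

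Gm10851 was higher in 9mTSCmKO than in 9mCON by 4.20 ± 0.523 on the log2 scale (18.3-fold, edgeR, adjusted p = 3.48e-08, where 37.9% of all genes were called). Rapamycin lowered it in 9mTSCmKO, with a log2 fold change of -1.96 ± 0.421 (3.90-fold, adjusted p = 0.00042, background 32.6%). The genotypes also differed under rapamycin with overlapping groups, 1.69 ± 0.554 (adjusted p = 0.025), a call that ended at 1.03 (adjusted p = 0.191) without 9mTSCmKO+RM replicate 1 and at 1.51 and 1.5 without 9mCON+RM replicates 3 and 4. In 9mTSCmKO against 9mCON all 6 slow fiber markers were higher, and 5 of 11 fast fiber, 3 of 5 fibroblast, 3 of 5 tendon and 2 of 5 each of the endothelial, adipocyte and Schwann cell markers lower. With rapamycin in 9mTSCmKO 6 fast fiber markers rose and 1 fell, and both tested markers of proliferating cells (of 5 listed) fell, with a median log2 fold change of -1.24. The part of these markers in the differences of Gm10851 was not tested. In 9mCON the change with rapamycin was 0.54 ± 0.698 (adjusted p = 0.694, background 11.8%), on counts of 0 to 8 per library. The difference between the rapamycin effects of both genotypes was -2.51 ± 0.824 (edgeR interaction, adjusted p = 0.0669, background 4.87%), which missed the threshold in edgeR and passed it in DESeq2 (adjusted p = 0.0219).

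Pfkfb3, within which Gm10851 lies, codes for an enzyme that makes fructose 2,6-bisphosphate, an activator of glycolysis. Its CPM were 290.1, 225, 166, 212 and 454 in 9mTSCmKO and 102, 138, 103, 104 and 61.0 in 9mTSCmKO+RM, without overlap. Rapamycin lowered Pfkfb3 in 9mTSCmKO with a log2 change of -1.41 ± 0.434 (edgeR, adjusted p = 0.0122) and in 3mTSCmKO with a log2 change of -1.87 ± 0.439 (adjusted p = 0.00164), the direction of Gm10851 in the same groups. By genotype the pair differed. Pfkfb3 did not pass in TSCmKO under vehicle, with -0.91 ± 0.428 in 9mTSCmKO against 9mCON (adjusted p = 0.0906) and 0.53 ± 0.425 in 3mTSCmKO against 3mCON (adjusted p = 0.422), and it was lower in 9mTSCmKO+RM than in 9mCON+RM (-1.56 ± 0.436, adjusted p = 0.00853). After removing group means, Gm10851 and Pfkfb3 had r = 0.45 over the 40 libraries.

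Among the other genes beside Gm10851, Prkcq, which codes for protein kinase C theta, was lower in TSCmKO in all 4 genotype comparisons. Its log2 fold changes ran from -0.72 to -0.51 (edgeR, highest adjusted p = 0.00132), opposite to Gm10851. Rbm17 (a splicing factor) and Il2ra (a chain of the interleukin-2 receptor) passed in none of the 8 comparisons, with lowest adjusted p of 0.0677 and 0.207, and Sfmbt2 was below the filter. The genes most like Gm10851 over the 40 libraries were Rasd2 (r = 0.879, and 0.37 after removing group means), Zfyve28 (r = 0.874, and 0.44 after removing group means) and Cables2 (r = 0.871, and 0.56 after removing group means). Rasd2, a small GTPase, averaged 6.34 ± 6.06 CPM in 3mCON, 218 ± 48.7 in 3mTSCmKO and 40 ± 9.79 in 3mTSCmKO+RM.

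C130080G10Rik and its longer overlapping partner A530058N18Rik were likewise high in TSCmKO muscle under vehicle and low in the other groups. CPM of C130080G10Rik were 0.503, 1.0, 0.165, 0.505 and 1.27 in 3mCON, 3.82, 26.6, 28.8, 7.41 and 32 in 3mTSCmKO and 0.602, 0.755, 1.02, 0.549 and 1.01 in 3mTSCmKO+RM. Replicates 1 and 4 of 3mTSCmKO stood well below the other three, yet all 5 lay above the groups on either side. The difference with rapamycin that named the gene was 25.3-fold, and that of A530058N18Rik 25.0-fold. At 9 months, outside that choice, CPM of C130080G10Rik were 0.885, 0.302, 0.0811, 0.436 and 0.361 in 9mCON, 4.68, 5.58, 2.23, 2.25 and 4.76 in 9mTSCmKO, 0.270, 0.411, 0.289, 0.172 and 0.0674 in 9mCON+RM and 0.156, 0.230, 0.543, 0.482 and 0.426 in 9mTSCmKO+RM. The 9mTSCmKO libraries again did not overlap the other 3 groups of that age.

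C130080G10Rik was higher in 9mTSCmKO than in 9mCON by 3.16 ± 0.518 (8.96-fold, edgeR, adjusted p = 6.92e-06). Rapamycin lowered it in 9mTSCmKO with a log2 change of -3.36 ± 0.531 (10.3-fold, adjusted p = 6.61e-06). The fiber type and other cell markers moved in these comparisons as given for Gm10851, and their part was not tested. After rapamycin the difference between genotypes at 9 months was 0.56 ± 0.761 (adjusted p = 0.674), with 1 to 10 counts per library in these groups. Rapamycin gave -0.76 ± 0.742 in 9mCON (adjusted p = 0.585) and -0.61 ± 0.629 in 3mCON (adjusted p = 0.905, where 0.679% of all genes were called), differences not detectable at counts of 1 to 17 per library. The test of the difference between both genotypes' responses at 9 months gave -2.60 ± 0.980 (adjusted p = 0.114 in edgeR and 0.0369 in DESeq2).

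A530058N18Rik was counted less often, at 0.724 to 7.62 CPM in 3mTSCmKO, 0.634 to 2.29 in 9mTSCmKO and at most 0.364 in each of the other 6 groups. In 9mTSCmKO it had 126 counts in all, against 13 in 9mCON and 10 in 9mTSCmKO+RM. The gene passed the filter on low counts through libraries of 3mTSCmKO and 9mTSCmKO together, so these counts are a description and carry no test or interval. Its share of the counts of both genes was 18.2% to 27.1% in all 8 groups, lowest in 3mTSCmKO+RM and highest in 9mCON. The equal division of shared reads feeds into that share.

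Actc1 codes for cardiac alpha-actin, which fetal skeletal muscle also makes, and starts next to C130080G10Rik in the other direction. Its CPM were 54.3, 66.0, 29.6, 133 and 70.2 in 3mCON and 121, 751, 754, 409 and 998 in 3mTSCmKO. At 9 months they were 262, 241, 206, 96.9 and 87.7 in 9mCON, 238, 423, 539, 179 and 272 in 9mTSCmKO, 39.8, 22.8, 19.8, 16.1 and 18.3 in 9mCON+RM and 339, 226, 192, 245 and 103 in 9mTSCmKO+RM. Actc1 was spread widely within groups. The lowest mean was that of 9mCON+RM (23.4 ± 9.52), which overlapped 3mCON and 3mCON+RM (from 29.6 and 23.8 CPM). It was higher in 3mTSCmKO than in 3mCON by 3.10 ± 0.518 (edgeR, adjusted p = 2.95e-05, background 19.8%), and the difference in 9mTSCmKO was 0.89 ± 0.482 (adjusted p = 0.147).

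With rapamycin the pair moved by different amounts, which no test compared. In TSCmKO muscle, where C130080G10Rik went down to control levels, the log2 fold change of Actc1 was -0.75 ± 0.480 at 3 months (edgeR, adjusted p = 0.281, background 23.6%) and -0.58 ± 0.480 at 9 months (adjusted p = 0.371), and neither passed. In 9mCON rapamycin lowered Actc1 with a log2 change of -2.93 ± 0.521 (adjusted p = 0.000319). C130080G10Rik, at 1 to 15 counts per library, gave -0.76 ± 0.742 there and did not pass. Fibroblast, tendon and macrophage markers were lower in the same comparison (5 of 5, 4 of 5 and 4 of 5), and their part in this was not tested. Actc1 was higher in TSCmKO+RM than in CON+RM at both ages, by 2.20 ± 0.501 (adjusted p = 0.00309) and 3.24 ± 0.527 (adjusted p = 1.84e-05). With group means removed, r of C130080G10Rik and Actc1 was 0.49 over 40 libraries. The plot of each transcript against its coding neighbour shows that TSCmKO libraries with and without rapamycin overlap along the Actc1 axis and not along the C130080G10Rik axis.

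Further out, Aqr (a splicing helicase) was lower in 9mTSCmKO and rose with rapamycin there by 0.58 ± 0.0976 (adjusted p = 1.44e-05). Zfp770, a zinc finger gene, was higher in 9mTSCmKO by 0.65 ± 0.203 (adjusted p = 0.0103) and fell with rapamycin in 3mTSCmKO with a log2 change of -0.54 ± 0.201 (adjusted p = 0.0479). Gjd2, the connexin gene at the start of A530058N18Rik, had at most 1 count in any library, and Scg5 at most 7. Most like C130080G10Rik over the 40 libraries were Blnk (r = 0.860, and 0.14 after removing group means), Gatsl2 (r = 0.849, and 0.13 after removing group means) and Pip5k1c (r = 0.840, and -0.06 after removing group means). The same 3 genes led the list for A530058N18Rik, whose counts overlap with it.

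**Figure D3:**
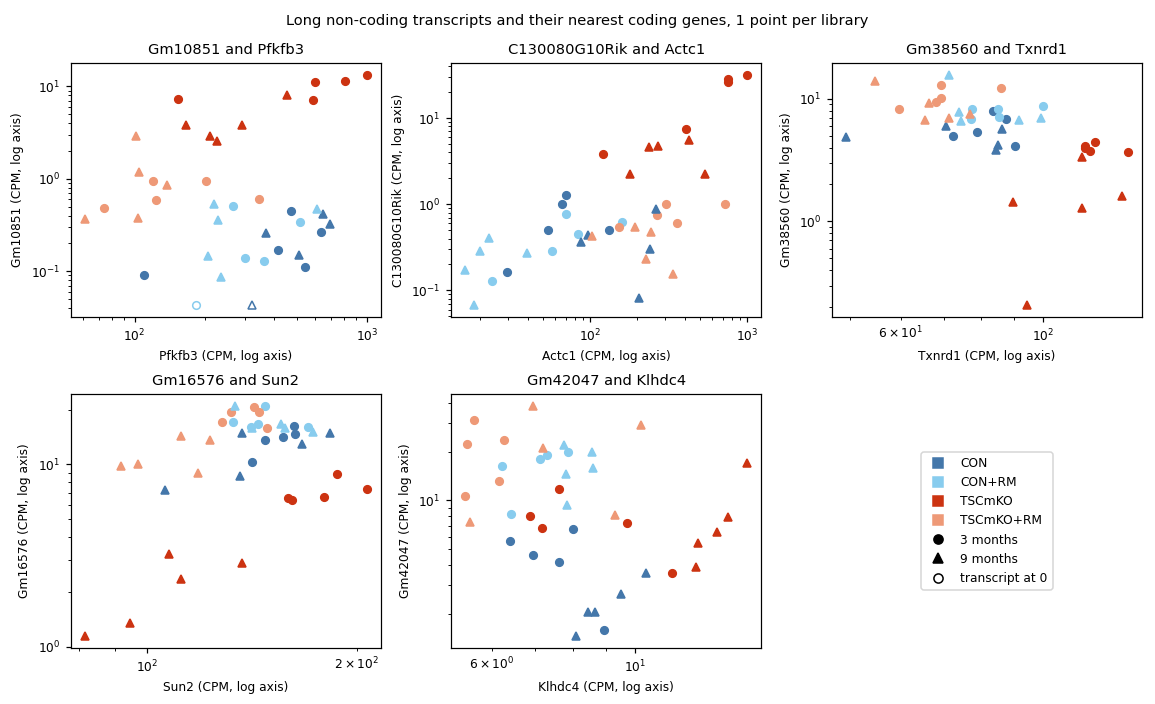
CPM of 5 long non-coding transcripts (vertical, log axis) against that of the nearest coding gene (horizontal, log axis), 1 point per library, coloured by group, with circles for 3 months and triangles for 9 months. Vehicle TSCmKO libraries separate along the Gm10851 and C130080G10Rik axes more than along Pfkfb3 or Actc1, and Gm38560 is low where Txnrd1 is high.

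Gm38560 and Gm16576 were lowest in 9mTSCmKO and stood higher with rapamycin. Their levels in 9mTSCmKO and 9mTSCmKO+RM chose them. CPM of Gm38560 were 0.208, 1.29, 1.45, 1.61 and 3.32 in 9mTSCmKO and 13.8, 6.91, 6.74, 7.51 and 9.14 in 9mTSCmKO+RM, a 5.44-fold difference. Those of Gm16576 were 1.14, 2.88, 1.34, 3.23 and 2.36 and 8.99, 14.3, 13.6, 10.1 and 9.81, a 5.21-fold difference. Replicate 1 of 9mTSCmKO, the library with the highest Gm26870, had the lowest value of both genes. The 9mCON libraries held 4.90, 6.03, 3.81, 5.67 and 4.18 CPM of Gm38560 and 7.26, 8.59, 14.8, 13 and 14.9 of Gm16576, all above 9mTSCmKO.

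The libraries at 3 months were outside the choice. Gm16576 measured 13.6, 14.2, 16.3, 14.7 and 10.3 CPM in 3mCON, 6.52, 7.37, 6.37, 6.65 and 8.84 in 3mTSCmKO, 17.0, 16.0, 16.7, 21 and 16.0 in 3mCON+RM and 19.5, 20.6, 19.4, 17.0 and 15.9 in 3mTSCmKO+RM. The 3mTSCmKO group lay below the other 3 without overlap. The gene was lower in 3mTSCmKO than in 3mCON with a log2 change of -0.95 ± 0.189 (1.93-fold, edgeR, adjusted p = 0.000243), and rapamycin raised it in 3mTSCmKO by 1.37 ± 0.189 (2.58-fold, adjusted p = 7.42e-07). With rapamycin the genotypes stood 0.09 ± 0.183 apart (adjusted p = 0.867). The difference with rapamycin was 0.33 ± 0.185 in 3mCON (adjusted p = 0.658) and 0.53 ± 0.187 in 9mCON (adjusted p = 0.0564), which missed the threshold. The rapamycin response at 3 months was larger in TSCmKO than in controls, with a difference of 1.04 ± 0.263 (edgeR interaction, adjusted p = 0.0176, background 3.45%). Of 11 fast fiber markers 5 rose and 1 fell with rapamycin in 3mTSCmKO and 2 of 5 macrophage markers rose, and their part in the rise of Gm16576 was not tested.

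Gm38560 measured 4.98, 5.36, 7.96, 6.78 and 4.14 CPM in 3mCON, 3.69, 4.44, 3.75, 4.15 and 3.99 in 3mTSCmKO, 7.13, 8.65, 8.20, 8.20 and 6.81 in 3mCON+RM and 10.2, 12.8, 12.3, 8.24 and 9.36 in 3mTSCmKO+RM. The lowest group was again 3mTSCmKO and the highest 3mTSCmKO+RM, which overlapped 3mCON+RM. Rapamycin raised it in 3mTSCmKO by 1.40 ± 0.279 (2.64-fold, edgeR, adjusted p = 0.000224). In that comparison 5 of 11 fast fiber markers rose and 1 fell and 2 of 5 macrophage markers rose, and their part was not tested. The genotype difference at 3 months, -0.56 ± 0.283 (adjusted p = 0.167), did not pass, nor did that under rapamycin, 0.44 ± 0.272 (adjusted p = 0.381), or the change in 3mCON, 0.40 ± 0.278 (adjusted p = 0.771). With only the groups compared in the fit, both genotype differences passed (-0.56, adjusted p = 0.0213, and 0.46, adjusted p = 0.0238). With insert size as a term that under vehicle did (-0.69, adjusted p = 0.04). In 9mCON+RM the values were 15.7, 6.99, 7.81, 6.61 and 6.74, with a rise over 9mCON of 0.83 ± 0.282 (adjusted p = 0.0465) that was 0.53 (adjusted p = 0.238) without 9mCON+RM replicate 1. The call also ended, at 0.76 to 0.91, without replicate 2 of 9mCON+RM or replicate 1, 3, 4 or 5 of 9mCON, and the fibroblast, tendon and macrophage markers that fell in this comparison were not tested for a part in it. The interaction at 3 months was 1.0 ± 0.392 (adjusted p = 0.179).

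Txnrd1, which codes for a cytosolic thioredoxin reductase, an antioxidant enzyme, moved the other way. A coding transcript of Txnrd1 starts in the printed Gm38560 window, while the gene's annotated 5′ end lies 25057 bp from the Gm38560 start. Values here are per gene, so a change cannot be assigned to either start of Txnrd1. Its CPM were 72.3, 78.7, 83.6, 87.6 and 90.5 in 3mCON, 135, 120.5, 118, 116 and 116 in 3mTSCmKO and 69.3, 69.4, 85.8, 59.6 and 68.0 in 3mTSCmKO+RM. At 9 months they were 49.3, 70.6, 84.5, 86.1 and 85.0 in 9mCON, 94.4, 115, 89.6, 132 and 115 in 9mTSCmKO and 54.7, 71.2, 65.5, 76.8 and 66.3 in 9mTSCmKO+RM. In 3mCON+RM and 9mCON+RM they were 77.3 to 99.9 and 71.2 to 99.0. The 3mTSCmKO group lay above the other 3 of its age without overlap, and 9mTSCmKO above 9mCON and 9mTSCmKO+RM but not clear of 9mCON+RM. Txnrd1 was higher in 3mTSCmKO than in 3mCON by 0.55 ± 0.127 (edgeR, adjusted p = 0.00127) and in 9mTSCmKO than in 9mCON by 0.54 ± 0.127 (adjusted p = 0.000873). Rapamycin lowered it in 3mTSCmKO with a log2 change of -0.78 ± 0.127 (adjusted p = 1.2e-05) and in 9mTSCmKO with a log2 change of -0.71 ± 0.128 (adjusted p = 4.32e-05). In controls the log2 fold changes were 0.04 ± 0.127 and 0.13 ± 0.127 (adjusted p = 0.986 and 0.591), and the interactions passed at both ages (-0.83 ± 0.180, adjusted p = 0.00502, and -0.83 ± 0.180, adjusted p = 0.0049). Within groups the pair showed r = 0.07 after removing group means.

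Nfyb, which codes for a subunit of the factor that binds CCAAT boxes, lies 81588 bp from Gm38560 and was lower in TSCmKO in all 4 genotype comparisons, from -0.65 to -0.39 (edgeR, highest adjusted p = 0.00723). It fell with rapamycin in 3mTSCmKO with a log2 change of -0.48 ± 0.107 (adjusted p = 0.000848), where Gm38560 rose. Chst11 (a chondroitin sulfotransferase) was lower in 9mTSCmKO with a log2 change of -0.73 ± 0.249 (adjusted p = 0.0189), and the magnesium transporter gene Slc41a2 fell with rapamycin at 9 months in both genotypes (-1.01 ± 0.282, adjusted p = 0.00526, and -0.89 ± 0.294, adjusted p = 0.0404). Hcfc2 passed in none of the 8 comparisons (lowest adjusted p = 0.0759). Most like Gm38560 were Aasdh (r = 0.912, and 0.79 after removing group means), Lztr1 (r = 0.887, and 0.60 after removing group means) and 9430091E24Rik (r = 0.883, and 0.68 after removing group means). Aasdh, an enzyme gene, averaged 10.2 ± 0.957 CPM in 9mCON, 5.48 ± 1.71 in 9mTSCmKO and 10.9 ± 1.33 in 9mTSCmKO+RM.

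Sun2 shares its promoter stretch with Gm16576 but did not share its change with rapamycin in TSCmKO muscle. The Sun2 product anchors the nucleus to the cytoskeleton through the nuclear envelope. Sun2 CPM were 159, 207, 162, 179.5 and 188 in 3mTSCmKO and 145, 142, 132, 128 and 149 in 3mTSCmKO+RM, and they fell with a log2 change of -0.36 ± 0.121 (edgeR, adjusted p = 0.025) where Gm16576 rose. In 9mTSCmKO+RM against 9mTSCmKO, where Gm16576 stood higher, the log2 fold change of Sun2 was 0.03 ± 0.121 (adjusted p = 0.894). Sun2 was lower in 9mTSCmKO (-0.45 ± 0.121, adjusted p = 0.00306) and in 9mTSCmKO+RM (-0.49 ± 0.121, adjusted p = 0.00271) than in controls, and its log2 fold change was 0.21 ± 0.121 in 3mTSCmKO (adjusted p = 0.231). The genotype effect on Sun2 differed between ages (-0.67 ± 0.171, adjusted p = 0.0169, background 4.94%). Gm16576 was also lower by genotype at 9 months, at -2.42 under vehicle and -0.57 under rapamycin, values without a test. At 3 months under vehicle it was lower (-0.95) where Sun2 did not pass. Within groups, r of Gm16576 and Sun2 was 0.60.

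Gtpbp1, on the same strand as Gm16576 and 21218 bp before it, moved in its direction at 9 months. This GTPase gene was lower in 9mTSCmKO with a log2 change of -0.63 ± 0.144 (edgeR, adjusted p = 0.00062) and rose with rapamycin there by 0.60 ± 0.144 (adjusted p = 0.00131), with CPM of 10.1, 27.7, 19.3, 22.3 and 20.9 in 9mTSCmKO and 28.5, 31.4, 35.5, 29.8 and 26.9 in 9mTSCmKO+RM. Its r with Gm16576 after removing group means was 0.68. Dnal4 and Nptxr passed in none of the 8 comparisons (lowest adjusted p = 0.549 and 0.237). Most like Gm16576 over the 40 libraries were Dennd4b (r = 0.958, and 0.75 after removing group means), Cacna1s (r = 0.951, and 0.72 after removing group means) and Gtf2i (r = 0.948, and 0.75 after removing group means). Cacna1s codes for the voltage sensor of excitation-contraction coupling and averaged 1517 ± 393 CPM in 9mCON, 606 ± 148 in 9mTSCmKO and 1492 ± 179 in 9mTSCmKO+RM.

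Gm42047 stood higher with rapamycin in both genotypes and at both ages. The control libraries chose it. CPM were 4.64, 4.18, 5.61, 6.72 and 1.60 in 3mCON and 18.1, 16.4, 19, 20 and 8.27 in 3mCON+RM, 3.6, 2.64, 1.46, 2.07 and 2.06 in 9mCON and 9.38, 22.1, 15.8, 14.5 and 19.9 in 9mCON+RM. The treated libraries lay above the untreated ones without overlap, 3.46-fold at 3 months and 6.86-fold at 9 months. The TSCmKO libraries were outside that choice. They held 6.78, 7.24, 8.06, 11.8 and 3.56 CPM in 3mTSCmKO and 13.2, 10.6, 22.3, 23.6 and 31.4 in 3mTSCmKO+RM, 17.1, 7.94, 3.91, 6.4 and 5.46 in 9mTSCmKO and 7.35, 29.1, 38.3, 8.19 and 20.9 in 9mTSCmKO+RM. Here treated and untreated libraries overlapped at both ages, through replicate 2 of 3mTSCmKO+RM and replicate 4 of 3mTSCmKO, and through replicates 1 and 4 of 9mTSCmKO+RM and replicates 1 and 2 of 9mTSCmKO.

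Rapamycin raised Gm42047 in 3mTSCmKO by 1.42 ± 0.404 (2.68-fold, edgeR, adjusted p = 0.00864) and in 9mTSCmKO by 1.35 ± 0.405 (2.55-fold, adjusted p = 0.00968). The latter call ended at 1.01 (adjusted p = 0.0603) without 9mTSCmKO+RM replicate 3. It also ended, at 1.35 (adjusted p = 0.0543), with only the groups compared in the fit. Of 11 fast fiber markers 5 rose and 1 fell in 3mTSCmKO and 6 rose and 1 fell in 9mTSCmKO. Of other cells, 2 of 5 macrophage markers rose in 3mTSCmKO, and both tested markers of proliferating cells fell in 9mTSCmKO. The part of these markers in the rise of Gm42047 was not tested. With the counts of Gm42047, Gm48362, Gm47939 and Gm43549 added, an alternative chosen after seeing the data, the values were 1.39 (adjusted p = 0.00753) and 1.20 (adjusted p = 0.0162). Taken singly, Gm48362 gave 1.23 ± 0.366 in 3mTSCmKO (adjusted p = 0.0115), Gm47939 1.32 ± 0.360 (adjusted p = 0.00571) and Gm43549 1.39 ± 0.359 (adjusted p = 0.00364). In 9mTSCmKO Gm48362 did not pass, at 0.79 ± 0.361 (adjusted p = 0.0885), while Gm47939 gave 1.0 ± 0.359 (adjusted p = 0.0301) and Gm43549 1.15 ± 0.356 (adjusted p = 0.0119). These 3 genes were also the most like Gm42047 over the 40 libraries, with r of 0.945 to 0.974 and of 0.89 to 0.93 after removing group means. Since the shared reads were divided among them, the 4 genes are not independent measurements, and which locus the reads came from cannot be told.

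The coding genes beside Gm42047 did not rise with rapamycin. Klhdc4, a Kelch-domain gene that starts 3678 bp away, was lowered in 3mTSCmKO with a log2 change of -0.56 ± 0.135 (edgeR, adjusted p = 0.00181) and in 9mTSCmKO with a log2 change of -0.77 ± 0.134 (adjusted p = 2.48e-05). Its CPM were 14.9, 13.9, 12.4, 13.4 and 12.5 in 9mTSCmKO and 5.55, 10.2, 6.95, 9.30 and 7.19 in 9mTSCmKO+RM, without overlap. In 3mCON and 9mCON, which chose Gm42047, the log2 fold change of Klhdc4 was -0.11 ± 0.137 and -0.16 ± 0.136 (adjusted p = 0.935 and 0.53). Klhdc4 was higher in 9mTSCmKO than in 9mCON by 0.57 ± 0.133 (adjusted p = 0.000816).

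Slc7a5, on the other side of Gm42047, codes for the light chain of a large neutral amino acid transporter that carries leucine. It was higher in TSCmKO in all 4 genotype comparisons, by 2.19 ± 0.204 in 9mTSCmKO (edgeR, adjusted p = 4.13e-11), 1.43 ± 0.205 in 3mTSCmKO (adjusted p = 1.31e-06), 1.65 ± 0.206 in 9mTSCmKO+RM (adjusted p = 9.26e-08) and 0.92 ± 0.208 in 3mTSCmKO+RM (adjusted p = 0.00248). Rapamycin lowered it in 3mTSCmKO with a log2 change of -0.58 ± 0.194 (adjusted p = 0.0245). Jph3 and Car5a were below the filter.

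**Figure D4:**
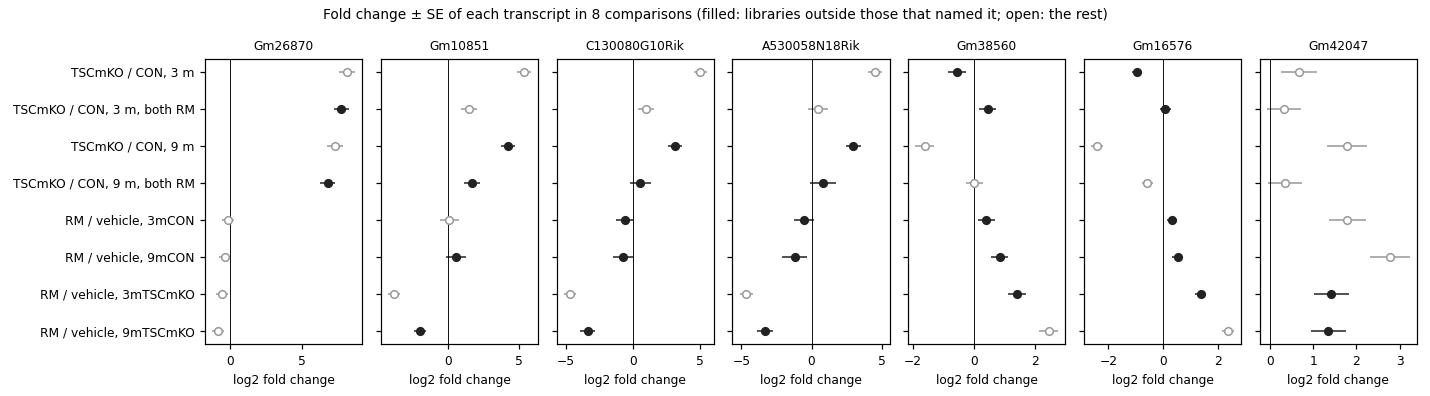
Log2 fold change (horizontal) with its SE as bars for each of the 7 transcripts in 8 comparisons (rows), filled where the libraries lay outside those that chose the gene and open otherwise. Filled points of Gm26870 lie at 7.79 and 6.84, those of C130080G10Rik at 9 months at 3.16 by genotype and -3.36 with rapamycin. Points and bars of A530058N18Rik, filled or open, are a description without a test.

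Ordered by group mean, the transcripts differed. Group means of Gm26870 ran from 25.1 ± 5.25 CPM in 3mCON+RM to 81.1 ± 66.7 in 9mCON, then without overlap to 5505 ± 1087 in 3mTSCmKO+RM, and the 4 TSCmKO groups overlapped their neighbours in that order up to 13182 ± 14605 in 9mTSCmKO. Gm10851 ended with 4.22 ± 2.18 in 9mTSCmKO and 10.1 ± 2.71 in 3mTSCmKO, and neighbouring groups overlapped at every step. For C130080G10Rik the one step without overlap led from 0.787 ± 0.221 in 3mTSCmKO+RM to 3.90 ± 1.56 in 9mTSCmKO. Gm16576 began with 2.19 ± 0.922 in 9mTSCmKO, then 7.15 ± 1.02 in 3mTSCmKO, each below the next group without overlap. Gm42047 passed from 2.37 ± 0.805 in 9mCON to 20.8 ± 13.4 in 9mTSCmKO+RM in steps that all overlapped. Per transcript length, mean TPM in 9mTSCmKO was 21126 ± 23019 for Gm26870, 5.31 ± 2.20 for C130080G10Rik, 4.68 ± 2.40 for Gm10851, 4.60 ± 3.26 for Gm38560, 3.09 ± 1.95 for Gm42047, 1.79 ± 0.914 for A530058N18Rik and 0.775 ± 0.359 for Gm16576 (SD, n = 5), and among these 7 only the range of Gm26870 did not overlap any other.

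Between members, Gm38560 and Gm16576 had r = 0.33 and C130080G10Rik and Gm10851 r = -0.28 over 40 libraries after removing group means. C130080G10Rik and A530058N18Rik, which share exons, had r = 0.68. In all, Gm26870 passed in 3 of the 4 comparisons open to a test, Gm10851 in 3 of 6, C130080G10Rik in 2 of 8, Gm38560 in 2 of 8, Gm16576 in 3 of 8 and Gm42047 in 2 of 4. Across these comparisons the share of all genes called ran from 0.679% (rapamycin in 3mCON) to 37.9% (9mTSCmKO against 9mCON). The tallies therefore do not rank the members.

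Coding genes around the 7 loci were called at shares above those of all genes in some comparisons and below them in others. Of 70 coding genes within 500 kb, 59 were tested. By genotype, 27 of 59 (45.8%) passed in 9mTSCmKO against 9mCON, where 37.9% of all tested genes did, and 14 (23.7%) in 3mTSCmKO against 3mCON, where 19.8% did. Between treated genotypes 14 (23.7%, against 20.6% of all genes) passed at 9 months and 7 (11.9%, against 10%) at 3 months. With rapamycin, 17 (28.8%, against 32.6%) passed in 9mTSCmKO and 12 (20.3%, against 23.6%) in 3mTSCmKO, each of these 12 lower, while 13% of all genes were called lower and 10.6% higher there. With only the groups compared in the fit, the order against all genes turned for rapamycin in 3mTSCmKO (25, 42.4% against 31.6%) and in 9mTSCmKO (14, 23.7% against 18.5%) and between treated genotypes at 3 months (8, 13.6% against 18.9%). For 9mTSCmKO against 9mCON that fit gave 13 (22.0%, against 20% of all genes). In 9mCON 7 passed (11.9%, against 11.8%), 1 higher and 6 lower, and in 3mCON 0, where 0.679% of all genes did (edgeR, with 6 at an unadjusted p under 0.05 and 1 in DESeq2). Nearest to a member, 12 of the 21 flanking genes tested passed in 9mTSCmKO against 9mCON (57.1%, against 37.9% of all genes), 6 higher and 6 lower.

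Other long non-coding genes gave a wider view. Of 4774 other genes in the table not annotated as protein-coding, 842 were tested, and 266 (31.6%, against 37.9% of all genes) passed in 9mTSCmKO against 9mCON and 220 (26.1%, against 32.6%) in 9mTSCmKO+RM against 9mTSCmKO. Of a list of 58 known lncRNAs, 41 were tested, of which 19 passed by genotype at 9 months, 11 higher and 8 lower (46.3%, against 37.9% of all genes), and 14 at 3 months, 7 in each direction (34.1%, against 19.8%). H19, Meg3, Rian and Mirg were higher in TSCmKO at both ages, Mirg by 3.62 ± 0.415, adjusted p = 2.11e-08 and Rian by 3.13 ± 0.295, adjusted p = 3.22e-10 at 3 months (edgeR). Neat1, the scaffold of paraspeckles, was lower with a log2 change of -1.20 ± 0.173, adjusted p = 1.45e-06 at 3 months and with a log2 change of -1.0 ± 0.172, adjusted p = 1.34e-05 at 9 months (edgeR).

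With rapamycin, 16 of the 41 passed in 9mTSCmKO, 7 higher and 9 lower (39.0%, against 32.6% of all genes). In 3mTSCmKO 16 passed, 13 higher and 3 lower, where 10.6% of all genes were called higher and 13% lower. In 9mCON 6 passed, each higher, where 5.03% of all genes were called higher and 6.82% lower. These 6 were Epb41l4aos (2.0 ± 0.325, adjusted p = 8.72e-05, edgeR), 1110038B12Rik (1.56 ± 0.274, adjusted p = 0.00022), Snhg12, Zfas1, Snhg5 and Gas5 (log2 fold changes of 1.03, 0.97, 0.88 and 0.78, adjusted p = 0.0125, 0.0196, 0.0011 and 0.0223). Gas5, Zfas1 and the Snhg genes are hosts of small nucleolar RNAs, carried in their introns. Epb41l4aos also rose in 3mCON (1.24 ± 0.316, adjusted p = 0.0488, edgeR), 3mTSCmKO (2.27 ± 0.328, adjusted p = 1.74e-06) and 9mTSCmKO (2.05 ± 0.320, adjusted p = 4.94e-06).

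**Figure D5:**
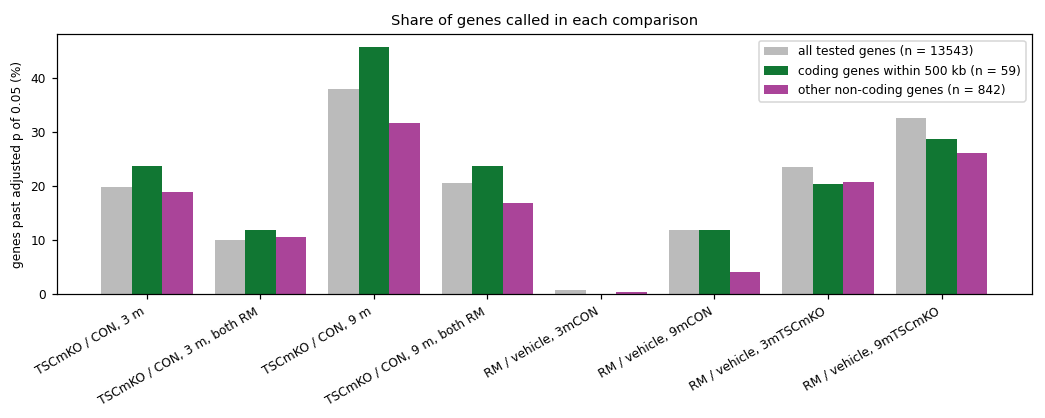
Share of genes past an adjusted p of 0.05 (vertical, percent) in 8 comparisons, for all 13543 tested genes (gray), the 59 tested coding genes within 500 kb of a member (green) and 842 other genes not annotated as protein-coding (purple). Green and gray bars stand at 45.8% and 37.9% in the comparison with the most calls and at 20.3% and 23.6% with rapamycin in 3mTSCmKO.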

How the data were processed

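The authors isolated poly(A) RNA from whole EDL muscle and made directional single-end libraries. They trimmed reads with cutadapt 1.9.1 and assigned them with kallisto 0.43.1 to Ensembl transcripts of GRCm38, dividing a read equally among the transcripts it matched. The study text limits these transcripts to protein-coding ones, yet the tables list 4781 genes that GENCODE M21 does not annotate so, which leaves the transcript set uncertain. The deposited tables hold estimated counts per gene, already whole numbers, and the TPM that the authors derived. Value columns without a sample numbered 0. Columns were matched to groups through the labels.

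Genes at 1 CPM or more in at least 5 libraries (13543) were tested with edgeR 4.0.16 in R 4.3.3: TMM factors, 8 group means over all 40 libraries, robust quasi-likelihood F-tests (two-sided) and Benjamini-Hochberg adjustment over all tested genes, threshold 0.05. SE came from the F-statistic. The model was tested on simulated data. Labels do not say that same-numbered mice are related. The p-values measure the spread between these mice. Members and lists were chosen with earlier results of these data known. Named genes were the 7 members, Tsc1, coding genes that overlap a member or are the 2 nearest on each side, the 3 tested genes most correlated with each member, listed lncRNAs that passed, and genes sharing 31-mers. The values of 1 flanking gene of A530058N18Rik are not reported here, so the neighbours described at that locus are not the whole set and nothing is said of them as a whole. Alternatives were other scalings (RLE, upper quartile), no filter, an insert size term (39 libraries with a value), a replicate block, only the groups compared, Gm26870 left out of totals, DESeq2 1.42.0, limma 3.58.1 on log2(TPM + 0.5), and each library left out in turn.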

Additional observations from a re-analysis of the deposited data

Results flagged for a closer look

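Within groups of 5, a library was singled out where its distance to the next value exceeded 0.71 of the range of the group (Dixon's criterion, which chance meets in about 1 of 20 groups). This was looked at for 12 genes, the 7 members and the nearest coding genes Pfkfb3, Actc1, Txnrd1, Sun2 and Klhdc4, in 96 groups, and 9 met it. Gm26870 reached 39068 CPM in 9mTSCmKO replicate 1, where the other 4 libraries held 3693 to 9087, and 199 in 9mCON replicate 1, where the others held 39.8 to 62.6. Gm10851 was 8.0 in 9mTSCmKO replicate 5 (others 2.59 to 3.85), and Gm38560 15.7 in 9mCON+RM replicate 1 (others 6.61 to 7.81). Gm16576 was 21 in 3mCON+RM replicate 4 (others 16.0 to 17.0) and 21 in 9mCON+RM replicate 2 (others 15.1 to 16.7). Among the coding genes, Pfkfb3 was 608 in 9mCON+RM replicate 5 (others 206 to 235), Actc1 39.8 in 9mCON+RM replicate 1 (others 16.1 to 22.8) and Txnrd1 135 in 3mTSCmKO replicate 1 (others 116 to 120.5).

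Some effects differed between groups by an interaction test (edgeR). The rapamycin response at 3 months was higher in TSCmKO than in CON for Gm16576 by 1.04 on the log2 scale (adjusted p = 0.0176) and lower for Txnrd1 with a difference of -0.83 (adjusted p = 0.00502). At 9 months it was higher in TSCmKO for Actc1 by 2.35 (adjusted p = 0.0413) and for Aqr by 0.53 (adjusted p = 0.0191), and lower for Txnrd1 with a difference of -0.83 (adjusted p = 0.0049). The genotype effect on Sun2 was lower at 9 than at 3 months with a difference of -0.67 (adjusted p = 0.0169).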

How the results depend on the processing

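Of 323 values of 35 results of the members under other settings (A530058N18Rik included, though no p is read from it), 304 kept their direction and their side of the threshold and 1 (Gm26870 by age, given next) reversed. With 1 library left out, 283 of 300 values of 30 of these results did so, and the 5 interactions were not refitted. The tests of Gm26870 and C130080G10Rik by genotype and of Gm16576 at 3 months in TSCmKO were among those kept. Where a value moved, the cause was not tested.

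With insert size as a term (without 9mTSCmKO+RM replicate 5, which has no value), Gm26870 in 9mCON+RM against 3mCON+RM gave 0.85 (adjusted p = 0.319) and in 9mTSCmKO+RM against 3mTSCmKO+RM -0.33, Gm38560 in 3mTSCmKO against 3mCON -0.69 (adjusted p = 0.04) and Gm16576 in 9mCON+RM against 9mCON 0.57 (adjusted p = 0.0379). With only the groups compared, Gm10851 in 9mTSCmKO+RM against 9mCON+RM gave 1.71 (adjusted p = 0.0733), Gm38560 in 3mTSCmKO against 3mCON -0.56 (adjusted p = 0.0213) and in 3mTSCmKO+RM against 3mCON+RM 0.46 (adjusted p = 0.0238), Gm38560 with rapamycin in 9mCON 0.83 (adjusted p = 0.074) and Gm42047 in 9mTSCmKO 1.35 (adjusted p = 0.0543). The rise of Gm38560 in 9mCON also missed the threshold under upper-quartile scaling (0.79), without a filter on low counts (0.86) and in limma (0.69). Gm16576 there passed with Gm26870 left out of the totals (0.54) and in DESeq2 (0.54). The interactions at 9 months passed in DESeq2 and limma for Gm10851 (-2.48 and -1.82) and C130080G10Rik (-2.64 and -2.34).

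Replicate numbers did not clearly pair the mice, and 5 correlations per comparison cannot exclude pairing. Correlations of same-numbered deviations were -0.327 to 0.347, and in none of the 8 comparisons were all 5 over 0.1. In 3mTSCmKO+RM against 3mCON+RM 3 of 5 mice, and elsewhere 0 to 2, correlated best with their own number. With the replicate block the rise of Gm38560 in 9mCON gave 0.82 (adjusted p = 0.0689) and Actc1 in 3mCON -0.05, and the block changed no other call of the members and moved no count of calls by over 1.5 times.

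Leaving out 1 library gave 1.26 to 1.47 for Gm26870 in 9mCON+RM against 3mCON+RM, 1.03 to 1.93 for Gm10851 in 9mTSCmKO+RM against 9mCON+RM, 0.53 to 0.91 for Gm38560 and 0.40 to 0.64 for Gm16576 with rapamycin in 9mCON (passing without 9mCON replicate 3 or 5), and 1.01 to 1.81 for Gm42047 in 9mTSCmKO. Among the nearest coding genes, values near 0 changed sign, with rapamycin -0.27 to 0.52 for Actc1 and -0.02 to 0.08 for Txnrd1 in 3mCON, -0.06 to 0.11 in 9mTSCmKO and -0.03 to 0.16 in 9mCON for Sun2, and -0.16 to 0.05 for Klhdc4 in 9mTSCmKO+RM against 9mCON+RM (0.01 in limma). The Txnrd1 value without 3mCON replicate 1 was -0.0.

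With only the groups compared, genes called fell from 5134 to 2710 in 9mTSCmKO against 9mCON, from 4410.0 to 2512 with rapamycin in 9mTSCmKO and from 1604 to 580.0 in 9mCON, and rose from 1359 to 2563 in 3mTSCmKO+RM against 3mCON+RM and from 92 to 378 with rapamycin in 3mCON. That last count was 38 without a filter, 181 in DESeq2 and 38 to 65 with 1 library left out. Neighbouring coding genes called went from 27 to 13 by genotype at 9 months (22.0% of 59, against 20% of all genes in that fit), from 12 to 25 with rapamycin in 3mTSCmKO (42.4% against 31.6%), from 7 to 4 in 9mCON (6.78% against 4.28%, and 3 to 7 with 1 library left out) and from 0 to 1 in 3mCON (1.69% against 2.79%, 1 in DESeq2 and 0 to 1 with 1 library left out). Low counts limit 3 members outside vehicle TSCmKO, with 0 to 37 per library for Gm10851, 1 to 19 for C130080G10Rik and 0 to 4 for A530058N18Rik.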
